A study of Mus musculus with 12 samples.

Results

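The genes described here are the liver X receptors and the cholesterol efflux genes linked to them, in RAW264.7 cells, an established mouse macrophage line. They are 6 of the 34797 gene names on the array: the exporters Abca1 and Abcg1, the receptors Nr1h3 and Nr1h2, the ubiquitin ligase Mylip, and the apolipoprotein gene Apoe. They were chosen by gene name, and all of their probes were taken, 8 of 55681 in all. A probe was tested where some group had it clearly above background (the scanner software's flag) on each of its 3 arrays, which 7 of the 8 probes met, and all 6 genes were tested among 17596. Cells were cultured for 24 h in medium with 0.5% BSA free of fatty acids. The control cells received neither agent, the FABP4 cells 200 nM of recombinant FABP4 (fatty acid binding protein 4, also called aP2), the palmitic acid cells 0.2 mM of palmitic acid, and the remaining cells both agents. Each of the 4 groups had 3 arrays, and the labels do not say that these came from separate cultures, so the p-values reflect sample-to-sample spread that may be technical. The comparisons ask what the fatty acid does without and with FABP4, what FABP4 does without and with the fatty acid, and whether the fatty acid's effect differs with FABP4 present.

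Liver X receptors are nuclear receptors that bind oxidised cholesterol (oxysterols) and, paired with a retinoid X receptor, turn on genes that lower the cholesterol content of a cell. Nr1h3 encodes LXRα and Nr1h2 encodes LXRβ. In macrophages their targets include Abca1, which moves cholesterol onto lipid-poor apolipoprotein A-I, Abcg1, which moves it onto mature high density lipoprotein, Mylip (also called Idol), which marks lipoprotein receptors for breakdown, Apoe, which carries lipid away from the cell, and Nr1h3 itself.

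The 75th percentile of spot intensity was between 250.1 and 315.3 on the 12 arrays, and between 42.8% and 46.7% of the 59305 spots were well above background. Values below are log2 intensity minus that percentile of the same array, so a value of 0 marks the percentile, and a difference of -1 is a fall to 0.5 of the level. Of 10 macrophage markers, 9 were well above background on all 12 arrays and Mertk was on 0. For palmitic acid without FABP4, 1515 genes were called (adjusted p under 0.05 in limma), 858 higher and 657 lower. For palmitic acid with FABP4 these were 670, 504 and 166. Without scaling between arrays, the split was 2947 higher and 110 lower for palmitic acid without FABP4, with the median over all genes at 0.17, and 67 and 92 for palmitic acid with FABP4. With the percentile over detected probes the latter was 391 and 431, and after quantile normalization 393 and 304. The 3 control arrays and FABP4 array 1 lay on slide 1, and the other 8 arrays on slide 2. All arrays of palmitic acid without FABP4 therefore sat on another slide than all arrays of the control. FABP4 was the only group on both slides. A fit with slide as a fixed block takes the slide difference from FABP4 array 1 against FABP4 arrays 2 and 3.

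Promoter letters are shown for Abca1, the member with the largest fall, and for Mylip. Sequences come from RefSeq (GRCm38.p6), whose table held 5 of the 6 members, all but Abcg1, with 8 promoters among 32851. The stretch searched runs from 250 bases before to 50 bases after each start. The motif of the receptor pair is a direct repeat with a 4-base spacer, searched on both strands as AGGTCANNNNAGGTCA. Up to 1 mismatch in its 12 fixed letters, the motif was found in 0.25% of all promoters and in 0 of the members'. Up to 3 mismatches, an allowance added after seeing the data, it was found in 21.9% of all promoters, and among the members in that of Abca1 alone. The 250 bases before the start of Abca1 (chr4:53159896-53160145, minus strand) and of Mylip (chr13:45389492-45389741, plus strand) are shown 5′ to 3′. Capitals mark CACGTG as well as TATAAA and the match with 3 mismatches.
Abca1: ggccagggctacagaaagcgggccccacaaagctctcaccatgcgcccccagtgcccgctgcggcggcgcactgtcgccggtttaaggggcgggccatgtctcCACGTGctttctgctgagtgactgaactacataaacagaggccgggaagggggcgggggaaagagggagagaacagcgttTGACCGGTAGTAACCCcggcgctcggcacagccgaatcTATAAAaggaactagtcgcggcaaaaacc
Mylip: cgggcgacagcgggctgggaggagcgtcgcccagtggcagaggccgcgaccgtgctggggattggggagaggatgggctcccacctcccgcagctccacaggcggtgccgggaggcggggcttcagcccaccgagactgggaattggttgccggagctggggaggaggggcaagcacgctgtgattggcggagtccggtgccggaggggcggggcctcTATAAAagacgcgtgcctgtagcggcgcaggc
In Abca1 the match begins at base -67 from the start, on the opposite strand, and reads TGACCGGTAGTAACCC. TATAAA begins at base -29 of Abca1 and at base -32 of Mylip, and 13.6% of all promoters hold it on either strand. CACGTG begins at base -147 of Abca1, and 7.15% of all promoters hold it. These matches describe letters only and no binding was measured.

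The exporters Abca1 and Abcg1 both fell with palmitic acid, with and without FABP4. The Abca1 probe (mm9 chr4:53043944-53044003, minus strand) read 0.97, 0.88 and 0.99 on the control arrays and 0.97, 0.90 and 0.68 on the FABP4 arrays. On the palmitic acid arrays it read 0.05, -0.08 and -0.07, and on the arrays with both agents 0.04, -0.05 and 0.07. Every array with palmitic acid was below every array without it. Rescaled to a common percentile, the Abca1 intensity was 520 ± 21 (SD, n = 3) in control, 489 ± 50 in FABP4, 264 ± 14 in palmitic acid and 274 ± 12 with both agents. The log2 difference for palmitic acid without FABP4 was -0.98 ± 0.08 (SE, limma adjusted p = 0.000157), a level 0.507 times that of control. For palmitic acid with FABP4 it was -0.83 ± 0.08 (adjusted p = 0.000535), or 0.563 times.

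Abcg1, measured by 1 probe (mm9 chr17:31252580-31252639, plus strand), followed the same order. It read 3.23, 3.28 and 3.31 in control, 3.23, 3.16 and 3.02 with FABP4, 2.46, 2.30 and 2.44 with palmitic acid, and 2.30, 2.28 and 2.40 with both agents. Again no array with palmitic acid reached any array without it. The rescaled intensity was 2610 ± 76 (SD, n = 3) in control and 1430 ± 89 in palmitic acid, against 2380 ± 170 with FABP4 alone and 1360 ± 62 with both. The log2 difference was -0.87 ± 0.07 without FABP4 (SE, limma adjusted p = 0.000156, 0.546 times) and -0.81 ± 0.07 with it (adjusted p = 0.000265, 0.571 times). Their intervals overlapped: the 95% interval of the palmitic acid difference ran from -1.15 to -0.81 for Abca1 and from -1.02 to -0.72 for Abcg1 without FABP4. As the cells were measured in bulk, fewer cells expressing a gene and less of its RNA per cell cannot be told apart.

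**Figure D1:**
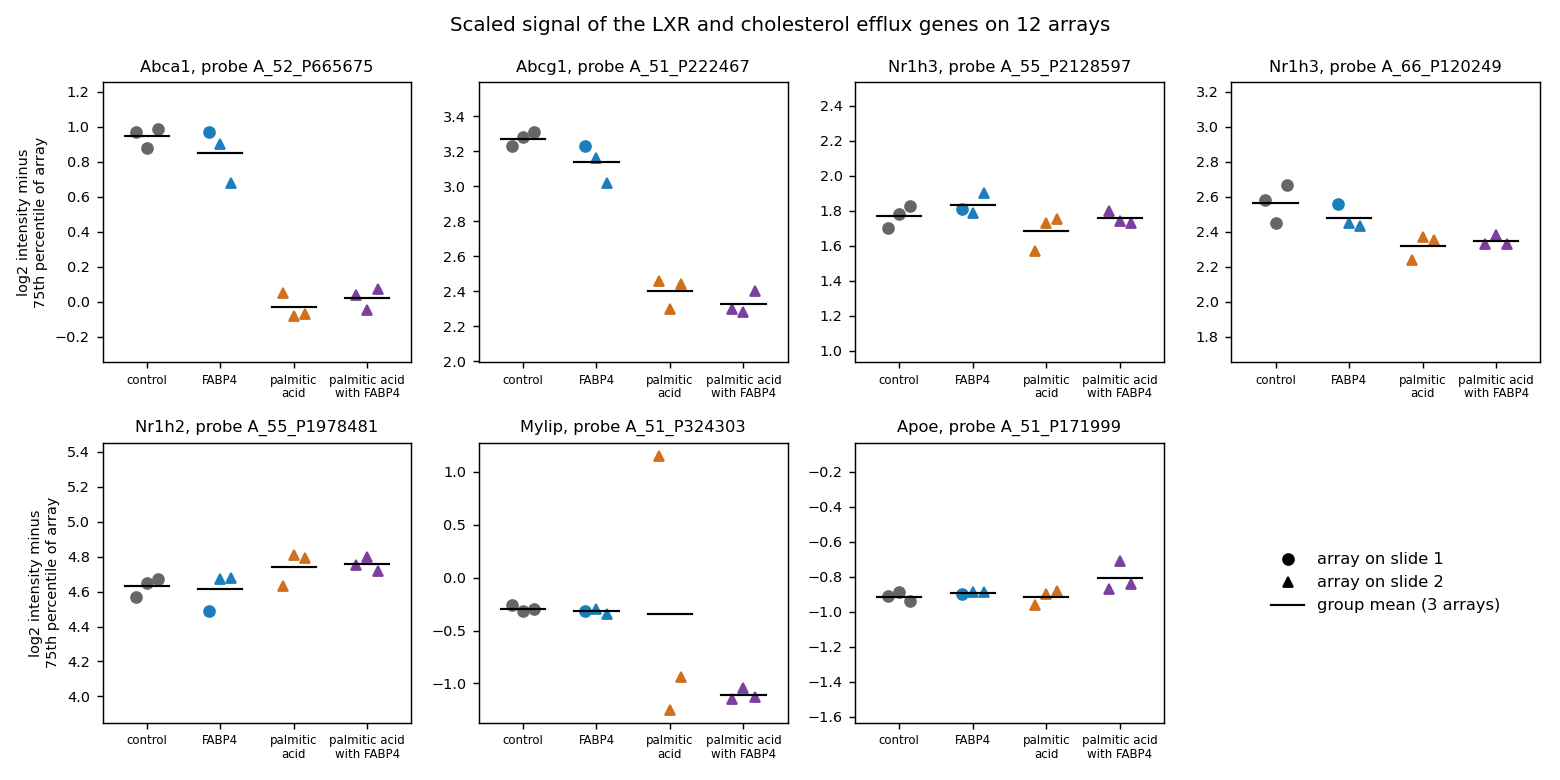
Each panel plots the log2 intensity minus the array's 75th percentile for 1 tested probe of the members on 12 arrays by group, with circles for slide 1, triangles for slide 2 and a bar for the group mean. Abca1 and Abcg1 separate by palmitic acid, and 1 palmitic acid array of Mylip stands at 1.15 while the other palmitic acid arrays are at or below -0.94.

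Both exporters kept their fall within slide 2, which holds 2 of the FABP4 arrays and all arrays with palmitic acid. There, with both agents against FABP4 alone, Abca1 differed by -0.77 ± 0.08 (SE, limma adjusted p = 0.0109) and Abcg1 by -0.76 ± 0.08 (adjusted p = 0.00793). With slide as a fixed block, the differences for palmitic acid without FABP4 were -0.80 ± 0.13 for Abca1 (adjusted p = 0.0275) and -0.74 ± 0.11 for Abcg1 (adjusted p = 0.025). With slide as a random block they were -0.91 (adjusted p = 0.00331) and -0.82 (adjusted p = 0.00299). The slide difference in the fixed-block fit rests on FABP4 array 1 against FABP4 arrays 2 and 3. Abca1 and Abcg1 passed the threshold in all 27 alternatives for palmitic acid without FABP4 and in all 28 for palmitic acid with FABP4. These alternatives are not independent. The deposited values and the fit without the Mylip spot could hardly change these genes. For palmitic acid with FABP4, the fixed slide block and leaving out FABP4 array 1 gave the same Abca1 result (-0.77, limma adjusted p = 0.00193).

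The arrays that were high for Abca1 were also high for Abcg1. Of 17585 other genes, Abcg1 had the highest correlation with Abca1 over the 12 arrays (Pearson r = 0.99), and over the 8 arrays of slide 2 it was 0.98. The next 5 genes outside the members were Pid1, Fgr, Rnd1, B4galt5 and Acaca, each at 0.98 over 12 arrays and between 0.97 and 0.98 over slide 2. Acaca encodes acetyl-CoA carboxylase, the enzyme that commits carbon to fatty acid synthesis, and Fgr encodes a Src family kinase of myeloid cells. Their own differences for palmitic acid without FABP4 lay between -0.70 (Fgr) and -0.35 (Pid1), smaller than those of the exporters. These correlations describe arrays that share the palmitic acid contrast and carry no test. Among the members, Nr1h3 was 472nd in the order (r = 0.84, and 0.69 on slide 2), Mylip 4295th (0.36 and 0.29), Apoe 11610th (-0.40 and -0.25) and Nr1h2 16055th (-0.77 and -0.63).

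**Figure D2:**
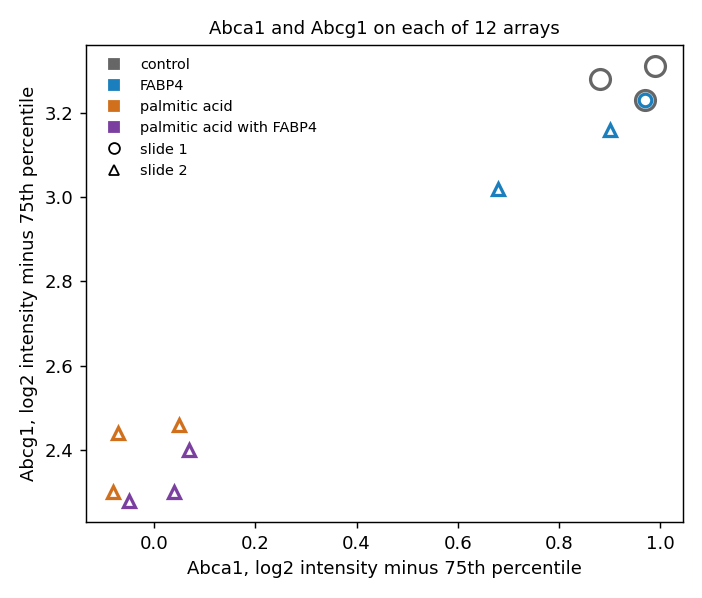
Log2 intensity minus the array's 75th percentile of Abcg1 against that of Abca1 on each of 12 arrays, coloured by group, with circles for slide 1 and triangles for slide 2. The 6 arrays with palmitic acid lie at the lower left, with Abca1 at most 0.07, and the 6 arrays without it at the upper right, with Abca1 at least 0.68.

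The receptors differed by at most 0.24 between the groups compared. Nr1h3 has 2 probes. The brighter one (mm9 chr2:91024250-91024309, minus strand) read 2.58, 2.45 and 2.67 in control, 2.56, 2.45 and 2.43 with FABP4, 2.24, 2.37 and 2.35 with palmitic acid, and 2.33, 2.38 and 2.33 with both. Its palmitic acid arrays were all below its control arrays. The difference for palmitic acid without FABP4 was -0.24 ± 0.06 (SE, limma adjusted p = 0.0451), 0.844 times control, and for palmitic acid with FABP4 -0.13 ± 0.06 (adjusted p = 0.274).

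The other Nr1h3 probe (mm9 chr2:91024345-91024404) read 1.70, 1.78 and 1.83 in control and 1.57, 1.73 and 1.75 with palmitic acid, and these groups overlapped. Its difference was -0.09 ± 0.06 (SE, limma adjusted p = 0.423 over all probes tested). The Nr1h3 call rested on the brighter probe and on few choices. It passed in 9 of 27 alternatives: with the mean of both probes the difference was -0.17 (adjusted p = 0.0917), with slide as a fixed block -0.12 (adjusted p = 0.652), and leaving out each array in turn gave adjusted p between 0.0286 and 0.148, above 0.05 for 10 of 12 arrays. The arrays whose removal kept the call were control array 2 and FABP4 array 1. The 9 also include the deposited values and the fit without the Mylip spot, which nearly repeat the main fit.

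Nr1h2 was read by 1 probe (mm9 chr7:51805013-51805072). Its values were 4.57, 4.65 and 4.67 in control, 4.49, 4.67 and 4.68 with FABP4, 4.63, 4.81 and 4.79 with palmitic acid, and 4.75, 4.80 and 4.72 with both. The arrays with both agents were all above the FABP4 arrays, while palmitic acid and control overlapped. The difference was 0.11 ± 0.07 without FABP4 (SE, limma adjusted p = 0.327) and 0.14 ± 0.07 with it (adjusted p = 0.255), with a 95% interval from -0.04 to 0.26 in the first comparison. With slide as a fixed block the first was -0.07. Without scaling between arrays it was 0.28 and passed (limma adjusted p = 0.0479), where the median over all genes was 0.17.

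Mylip was low on every array with palmitic acid except 1. Its tested probe (mm9 chr13:45506979-45507038) read -0.26, -0.32 and -0.30 in control and -0.32, -0.30 and -0.34 with FABP4. With both agents it read -1.15, -1.04 and -1.13, and with palmitic acid alone 1.15, -1.25 and -0.94. The arrays without palmitic acid lay between -0.34 and -0.26, and palmitic acid array 1 stood above all of them while the other 5 palmitic acid arrays stood below. As intensities, the 3 palmitic acid spots were 698, 127 and 133, against 200 to 215 in control. With all arrays in the fit, Mylip differed by -0.05 ± 0.48 for palmitic acid without FABP4 (SE, limma adjusted p = 0.957) and by -0.78 ± 0.48 for palmitic acid with FABP4 (adjusted p = 0.369), since the wide palmitic acid group enters the shared spread of both.

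On palmitic acid array 1 the spot had a pixel mean of 808, a median of 767 and a pixel SD of 292 over 43 pixels, with no outlier flag. On the other 11 arrays the pixel SD was between 46.1 and 74.3. Relative to its mean, the pixel SD was 36.2% on palmitic acid array 1, beside 32.4% on palmitic acid array 3 and 18.6% at the lowest. Its value lay 2.09 above the nearer of the other palmitic acid arrays, and 22 of 17586 genes had a larger gap of that kind on palmitic acid array 1. When that 1 value was left out, an alternative added after seeing the data, Mylip fell by 0.80 on the log2 scale for palmitic acid without FABP4 (SE 0.08, limma adjusted p = 0.00127, 95% interval -0.99 to -0.61, 0.574 times) and by 0.78 for palmitic acid with FABP4 (SE 0.08, adjusted p = 0.000864, 0.581 times). Leaving out the whole array gave -0.80 (adjusted p = 0.00251). The fit of only the FABP4 and both-agent arrays, which holds no palmitic acid array without FABP4, gave -0.78 ± 0.06 (adjusted p = 0.0114) for palmitic acid with FABP4. Leaving out palmitic acid array 2 or 3 instead gave 0.40 and 0.24. Why the spot was bright was not tested. The other Mylip probe (mm9 chr13:45503808-45503867) was well above background on 1 of 12 arrays and could not be used.

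**Figure D3:**
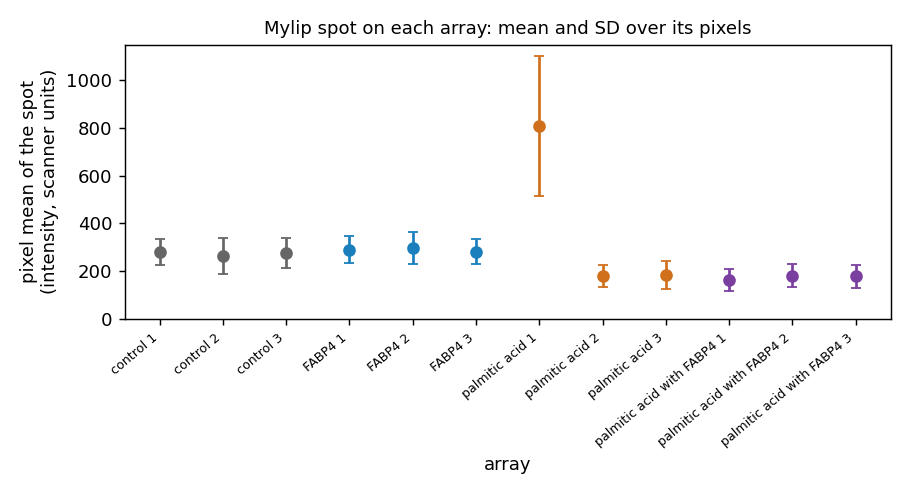
The pixel mean of the tested Mylip spot in scanner intensity units on each of 12 arrays, with bars for the SD over the pixels of the spot. The spot on palmitic acid array 1 is at 808 with a pixel SD of 292, and the other 5 arrays with palmitic acid lie at 163 to 183, below all arrays without it at 263 to 297.

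Apoe was not called in any comparison. It was read by 1 probe on 10 spots per array, whose sequence (mm9 chr7:20281732-20281791, minus strand) is given because the level rests on these spots alone.
Apoe: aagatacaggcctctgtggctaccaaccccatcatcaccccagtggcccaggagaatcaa
The 10 spots of an array varied by 4.69% to 14.6% (coefficient of variation). The mean over spots read -0.91, -0.89 and -0.94 in control, -0.90, -0.89 and -0.89 with FABP4, -0.96, -0.90 and -0.88 with palmitic acid, and -0.87, -0.71 and -0.84 with both agents. The arrays with both agents were above all other arrays, and the remaining groups overlapped. The gap was narrow, from -0.88 on palmitic acid array 3 to -0.87. Before scaling, the intensities were 139, 162 and 154 with both agents and 162, 162 and 139 with palmitic acid, which overlap. Of all genes, 26.3% did not overlap between both agents and FABP4, and 14.5% between both agents and palmitic acid. The difference for palmitic acid without FABP4 was 0.00 ± 0.05 (SE, limma adjusted p = 0.995, 95% interval -0.11 to 0.11), and for palmitic acid with FABP4 0.09 ± 0.05 (adjusted p = 0.346). Of 4 hepatocyte markers, 0 were well above background on all arrays.

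Counted together, 3 of the 6 members were called for palmitic acid without FABP4 (Abca1, Abcg1 and Nr1h3, all lower), where 8.61% of all tested genes were called and 3.73% were called lower. For palmitic acid with FABP4, 2 of 6 were called (Abca1 and Abcg1), beside 3.81% of all genes and 0.943% called lower. The palmitic acid and control groups did not overlap for 3 of 6 members, and for 33.9% of all genes. The both-agent and FABP4 groups did not overlap for all 6 members (Nr1h3 by its brighter probe), and for 26.3% of all genes. Nr1h2 and Apoe were higher with both agents, and the other members lower. Some gaps were narrow. Apoe read at least -0.87 with both agents and at most -0.89 with FABP4, and Nr1h2 at least 4.72 against at most 4.68. Before scaling, the Apoe intensities of these groups overlapped (139 to 162 against 149 to 157). In the fit over all probes, 2 of 7 member probes were called in each palmitic acid comparison, beside 7.41% and 2.73% of all probes, since the Nr1h3 call was lost there. The palmitic acid comparisons share no arrays, but both rest on 1 estimate of the spread over all arrays. Osteoclast markers moved with the same arrays: their summed intensity over 5 markers, of which Calcr was on 0 arrays above background, was 5270 to 5480 in control, 5550 to 5620 with FABP4, 7180 to 7670 with palmitic acid and 7530 to 8010 with both. Adipocyte markers, of which 1 of 6 (Retn) was above background on all arrays, summed to 287 to 336 in control, 281 to 318 with FABP4, 222 to 261 with palmitic acid and 235 to 281 with both. Fibroblast markers, of which 1 of 6 (Col1a2) was above background on all arrays, summed to 75.3 to 88.7, 70.5 to 88.7, 93.9 to 469 and 94.1 to 219 in the same order. Among them, Dcn and Col3a1 were each above background on 1 array and reached 450 and 137, against medians of 9.89 and 7.26. Neutrophil markers summed to 4230 to 4380, 4090 to 4150, 3750 to 4320 and 3990 to 4230. T and B cell markers summed to 1220 to 1410, 934 to 1420, 1100 to 1580 and 1430 to 1500. The part of these marker sets in the members' changes was not tested.

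**Figure D4:**
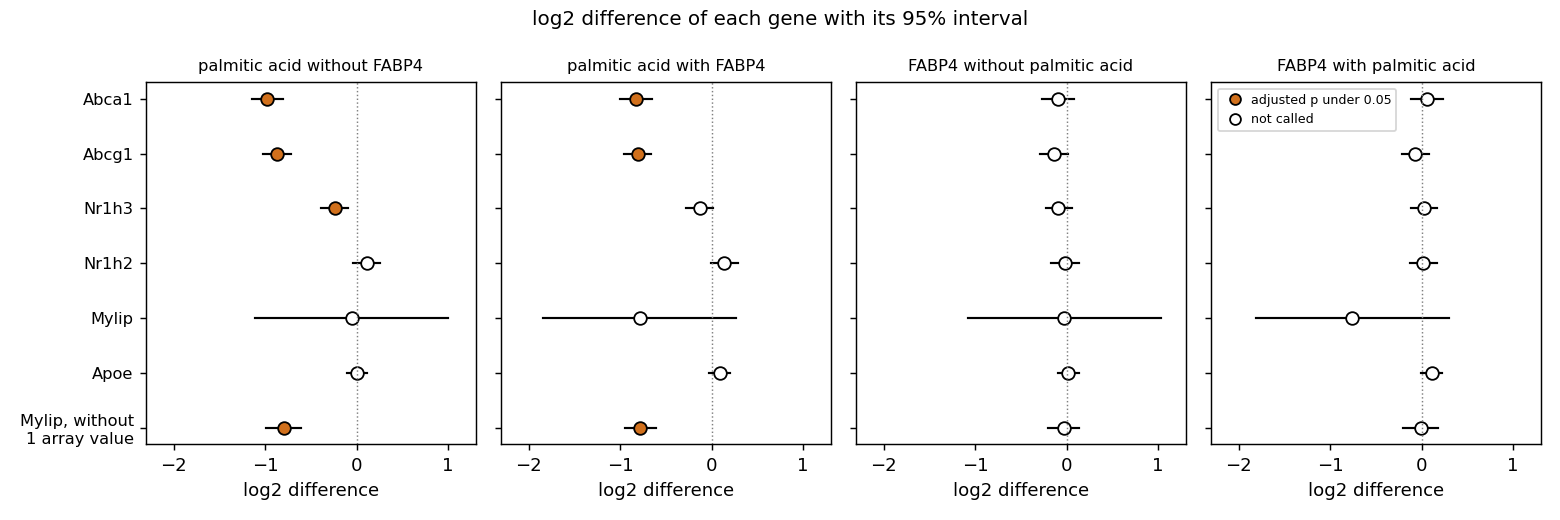
The log2 difference of each member in 4 comparisons, with its 95% interval from limma, filled where the adjusted p is under 0.05. Abca1 and Abcg1 lie between -0.98 and -0.81 in both palmitic acid comparisons, and the interval of Mylip spans 0 until the value of palmitic acid array 1 is left out.

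FABP4 changed no member past the threshold. Without palmitic acid, 0 of 6 members were called, where 0.017% of all genes were, and the differences lay between -0.14 ± 0.07 (Abcg1, limma adjusted p = 0.724) and 0.02 ± 0.05 (Apoe). Abcg1 read 3.23 to 3.31 in control and 3.02 to 3.23 with FABP4, and it was the only member whose groups did not overlap, beside 10.4% of all genes. The 95% intervals reached from -0.27 to 0.08 for Abca1 and from -0.29 to 0.01 for Abcg1. On palmitic acid, 0 of 6 members were called, as were 0% of all genes in limma, with 1034 genes (5.88%) at an unadjusted p under 0.05. The differences there were 0.06 ± 0.08 for Abca1 and -0.07 ± 0.07 for Abcg1, and Apoe, at 0.11 ± 0.05 (adjusted p = 0.806), was the only member without overlap, beside 14.5% of all genes. Mylip differed by -0.76 ± 0.48 in this comparison with all arrays and by -0.01 ± 0.08 without the 1 value.

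The palmitic acid effect with FABP4 did not differ from that without FABP4 past the threshold for any member. The interaction, which is the first effect minus the second, was 0.15 ± 0.11 for Abca1 (limma adjusted p = 0.753, 95% interval -0.09 to 0.40) and 0.07 ± 0.10 for Abcg1 (adjusted p = 0.868, interval -0.15 to 0.28). For Mylip it was -0.73 ± 0.67 with all arrays and 0.02 ± 0.11 without the 1 value (adjusted p = 0.974). Over all genes, 0 were called for the interaction and 1218 (6.92%) had an unadjusted p under 0.05.

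The genes around the members were read from the 4 lists with at least 5 tested genes, which hold 67 genes, 56 of them tested. For palmitic acid without FABP4, 4 rose and 4 fell, and for palmitic acid with FABP4, 4 rose and 3 fell. The genes that fell include Abca1 and Abcg1 in both comparisons, and Nr1h3 without FABP4. Among all tested genes, 4.88% were called higher and 3.73% lower without FABP4, and 2.86% and 0.943% with it. The median difference of the 56 was -0.03 and 0.04, beside 0.001 and 0.05 for all genes. Of 9 exporters and acceptors, Abca1 and Abcg1 were the 2 called in either comparison. Of 17 nuclear receptors and co-regulators, Nr1h3 fell and Pparg, the fatty acid sensor of macrophages and fat cells, rose by 0.27 ± 0.06 (SE, limma adjusted p = 0.0322) without FABP4. With FABP4, 0 of the 17 were called. Pparg lost its call after quantile normalization (0.17, limma adjusted p = 0.16), with normexp (0.10, adjusted p = 0.256), and on leaving out 5 of 12 arrays in turn. Its FABP4 arrays, at -1.72, -1.73 and -1.73, were also above its control arrays, at -1.84, -1.92 and -1.92. The retinoid X receptor genes on the list, which encode the partners of both LXRs, were not among the called genes. Rxra was imprecise, at 0.79 ± 0.31 (SE, limma adjusted p = 0.142) without FABP4 and -0.09 ± 0.31 with it. Rxrb differed by -0.02 and 0.15, and Rxrg by 0.24 and 0.09.

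Of 15 tested LXR target genes, the 3 that fell for palmitic acid without FABP4 were the members Abca1, Abcg1 and Nr1h3. Among all tested genes, 3.73% were called lower there. The 1 gene that rose was Cd5l, a secreted macrophage protein, at 0.68 ± 0.12 (SE, limma adjusted p = 0.00829), though with normexp background correction it was 0.15 and did not pass (adjusted p = 0.166). Its control arrays read -3.32, -3.51 and -3.30 and its palmitic acid arrays -2.65, -2.68 and -2.76. Cd5l was dim and well above background on 10 of 12 arrays. Its rescaled intensities were 23.7 to 27.4 in control and 40 to 43.1 with palmitic acid. The FABP4 arrays of Cd5l, at -2.99, -2.63 and -2.81, were also above control, and with FABP4 present the palmitic acid difference was 0.17 ± 0.12 (adjusted p = 0.419). For palmitic acid with FABP4, 2 of the 15 fell, again Abca1 and Abcg1, beside 0.943% of all genes called lower.

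Genes of cholesterol storage and transport moved in both directions. Of 21 tested, 2 rose and 1 fell without FABP4, and 4 rose and 1 fell with it. Among all tested genes, 8.61% and 3.81% were called in these comparisons. Soat2, which esterifies cholesterol, fell by 0.52 (SE 0.08, limma adjusted p = 0.00485) and by 0.40 (adjusted p = 0.0203). Soat1, the main such enzyme of macrophages, differed by 0.02 ± 0.07 (adjusted p = 0.86) without FABP4. With both agents it rose by 0.37 ± 0.07 over FABP4 alone (adjusted p = 0.016). Its interaction of 0.34 did not pass (adjusted p = 0.634). The FABP4 arrays of Soat1 read 0.48, 0.45 and 0.59, all below the control arrays at 0.76, 0.87 and 0.64. The both-agent arrays, at 0.93, 0.88 and 0.80, overlapped control. Gramd1b, a sterol carrier between membranes, rose by 0.26 and 0.24 on its brighter probe (adjusted p = 0.0119 and 0.0256). Its other probe differed by 0.10 and 0.10 and was not called among all probes (adjusted p = 0.176 and 0.238). With the mean of the Gramd1b probes, the difference with FABP4 was 0.17 and did not pass (adjusted p = 0.0567). Lipa, the lysosomal acid lipase, rose by 0.22 ± 0.04 (adjusted p = 0.0261) with FABP4 and differed by 0.06 without it. Stard4, a cholesterol transfer protein, rose by 0.24 and 0.25 on its brighter probe (adjusted p = 0.0197 and 0.0266), while its other probe differed by -0.42 and -0.11, and the former passed among all probes (adjusted p = 0.00435). With slide as a fixed block, Cd5l, Soat2, Gramd1b, Stard4 and Pparg lost their calls for palmitic acid without FABP4, at adjusted p between 0.134 and 0.367. For palmitic acid with FABP4, Soat2 lost its call in that fit (limma adjusted p = 0.0515), and Soat2, Gramd1b, Stard4, Lipa and Soat1 lost theirs on slide 2 alone (0.0539 to 0.0999) and in the fit of only the groups compared (0.0688 to 0.162).

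**Figure D5:**
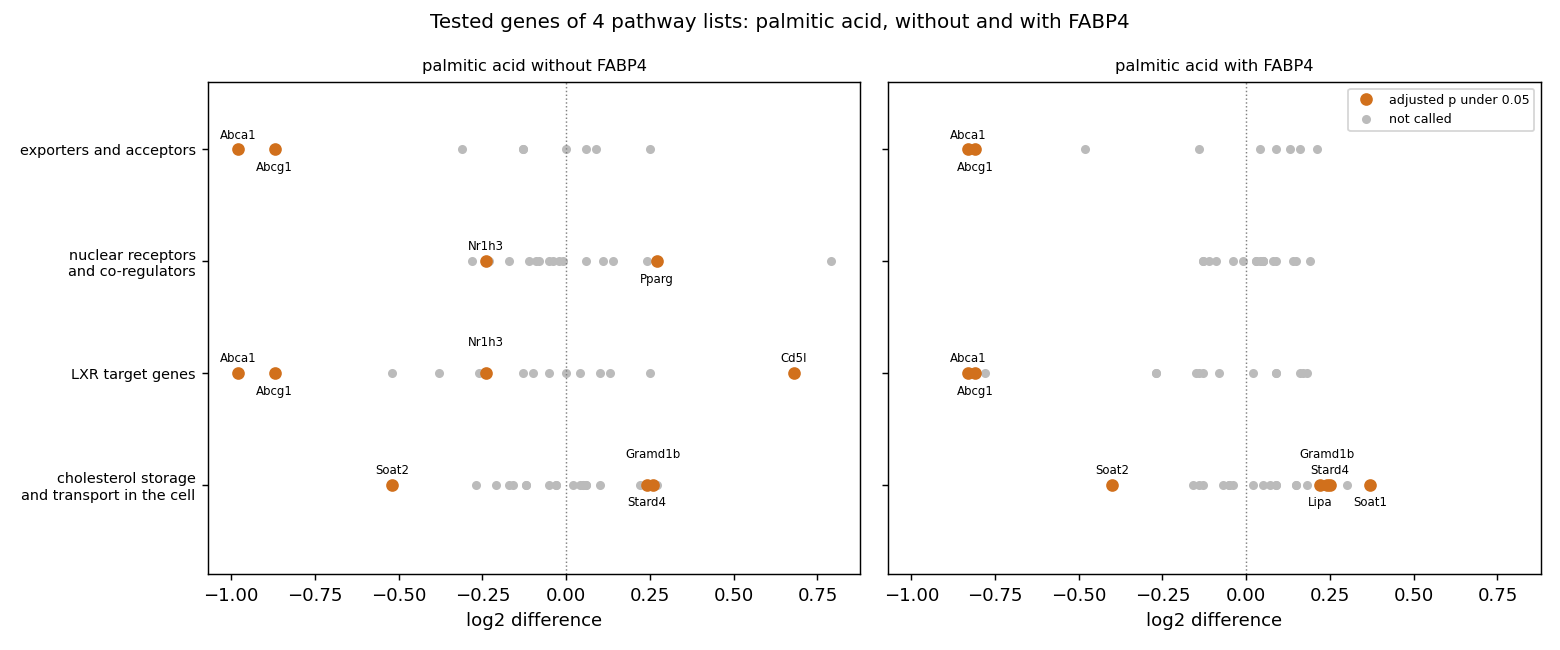
The log2 difference of each of 56 tested genes in 4 pathway lists, for palmitic acid without FABP4 (left) and with FABP4 (right), in orange and named where limma's adjusted p is under 0.05. Abca1 and Abcg1 stand at the far left in both panels, and 4 genes on the lists rose in each.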

How the data were processed

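Total RNA (50 ng) of 12 RAW264.7 samples was labelled with Cy3 for 1-colour Agilent arrays, 1 per sample. Per the file headers, the deposited intensity of each spot was read with Agilent Feature Extraction 10.7.3.1, background-subtracted, and is not scaled between arrays; probe positions are mm9. The place of a probe within its transcript was not analysed here. The authors' deposited value table (column medians 12.97 to 18.4), within 0.005 of that intensity, was an alternative.

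Groups came from the labels. Control and outlier spots were left out (10 values missing among tested genes), spots of a probe averaged, and log2 intensity taken minus the array's 75th percentile. The brightest tested probe stood for its gene. 4 group means were fitted with limma 3.58.1 (lmFit, eBayes, two-sided, Benjamini-Hochberg over 17596 genes; R 4.3.3 with version 1.17.8 of data.table), and again over 23911 probes. The fit was tested on simulated data. Figures used matplotlib 3.10.9 in Python 3.11.15. The number of arrays limits the precision (median SE 0.084).

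Members, lists and tests were chosen with earlier results of these data known. Named genes are all members, every listed gene called in a comparison (or the 2 smallest p-values where fewer than 2 were called for palmitic acid without FABP4), and the 5 genes most correlated with Abca1. Some genes that the rule names, and the lists with fewer than 5 tested genes, are not reported here. Alternatives were scaling, background (normexp, offset 50), filters, probe choice, slide and replicate blocks, fewer groups or arrays, and moderation; leaving out the Mylip spot and robust regression were added after seeing the data.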

Additional observations from a re-analysis of the deposited data

Results flagged for a closer look

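For the brighter Nr1h3 probe, the FABP4 arrays without palmitic acid all lay below the control mean. On the same probe, the arrays with both agents all lay above the palmitic acid mean. The margins were narrow. The highest FABP4 array read 2.56, beside a control mean that also rounds to 2.56. The lowest both-agent array read 2.33, beside a palmitic acid mean of 2.32. The groups overlapped in both FABP4 comparisons, and the share of all genes with such a pattern was not counted. The difference between both FABP4 effects, the interaction, was 0.11 ± 0.09 on the log2 scale and did not pass in limma (adjusted p = 0.774). The other Nr1h3 probe did not show this pattern. It differed by 0.07 in both FABP4 comparisons, with an interaction of 0.01 ± 0.09.

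The Mylip probe that was not tested gave a signal well above background on FABP4 array 2, at an intensity of 147. On the other 11 arrays, the 3 control arrays among them, it read between 4.79 and 9.7.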

How the results depend on the processing

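The falls of Abca1 and Abcg1 with palmitic acid kept their direction and call under every alternative run (Abca1 -1.02 to -0.79 without FABP4 and -0.93 to -0.67 with it, Abcg1 -0.90 to -0.70 and -0.91 to -0.76). Nr1h3, Nr1h2 (0.28 without scaling, limma adjusted p = 0.0479) and the Mylip values did not, as given above, and the cause was not tested. Leaving out each array gave 2 to 3 members called in each palmitic acid comparison, by gene and by probe. With it, genes called ranged from 655 to 2716 (palmitic acid without FABP4, 1515 with all arrays), 247 to 601 (with FABP4, 670), 0 to 57 (FABP4 without palmitic acid, 3), 0 to 2 (FABP4 with it) and 0 to 5 (interaction). The highest counts, 2716, 57 and 5, came without FABP4 array 1. Lower counts for palmitic acid without FABP4 came without control array 1 (655) or 3 (667) or palmitic acid array 1 (928), 2 (728) or 3 (907), and for palmitic acid with FABP4 without FABP4 array 2 (298) or array 1 (247), 2 (261) or 3 (338) of both agents. Signal over background limits the dim Mylip probe.

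For palmitic acid without FABP4, genes called were 3057 without scaling, 500 without a filter on dim probes, 138 with slide as a fixed and 191 as a random block, and 4749 by robust regression. For palmitic acid with FABP4 they were 159 without scaling, 185 without a filter, 259 on slide 2 alone, 94 with only the groups compared, 1139 with trended and robust moderation, and 3177 by robust regression. For FABP4 without palmitic acid they were 0 with the percentile over detected probes, normexp, the strict filter, the mean of a gene's probes, slide as a random block and only the groups compared, 1 without a filter, 103 with slide as a fixed block and 669 by robust regression. FABP4 with palmitic acid gave 1 with trended moderation and 63 by robust regression, and the interaction 3 without scaling, 37 with the fixed slide block and 459 by robust regression. The robust regression, added after seeing the data, gave the Mylip differences as -0.64 and -0.80.

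With replicate number as a block, genes called were 406 for palmitic acid with FABP4 and 0 for FABP4 without palmitic acid, and Nr1h3 lost its call (adjusted p = 0.0772). Once group means were removed, 1 of 18 same-numbered pairs had a correlation over 0.1 (-0.077 to 0.17). With few arrays per group and no comparison with differently numbered pairs, these correlations do not decide whether the arrays were paired.

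Differences of members that turned sign were as follows, and these were called neither before nor after. For palmitic acid without FABP4, Mylip was 0.12 without scaling and 0.00 with normexp, Nr1h2 -0.07 with the fixed slide block, and Apoe -0.05 after quantile normalization, -0.01 with normexp and the fixed slide block, and 0.00 with the random one. With FABP4, Apoe was -0.01 without scaling. For FABP4 without palmitic acid, unscaled values were 0.05 (Abca1), 0.00 (Abcg1), 0.06 (Nr1h3), 0.12 (Nr1h2) and 0.12 (Mylip), Abca1 was 0.03 with the fixed slide block, Apoe -0.01 after quantile normalization and 0.00 with normexp, and Nr1h2 0.00 with the detected percentile and robust regression. For FABP4 with palmitic acid, unscaled values were -0.07 (Abca1), -0.10 (Nr1h3), -0.11 (Nr1h2) and -0.02 (Apoe), Nr1h3 was -0.01 with the detected percentile and quantile normalization, and Nr1h2 -0.02, -0.03 and, with normexp, -0.01. The unscaled interaction was -0.12 (Abca1), -0.20 (Abcg1), -0.16 (Nr1h3), -0.24 (Nr1h2) and -0.18 (Apoe). Abcg1 was -0.02 with the fixed slide block, Nr1h2 -0.02 with the detected percentile and quantile normalization and -0.01 with normexp, and Mylip 0.02 without its 1 spot. Of listed genes, Stard4 was -0.09 with the mean of its probes, and Cyp46a1 -0.14 (0.57 without the block) and Soat1 -0.02 with the fixed slide block.

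Leaving out single arrays turned the sign of Mylip (-0.80 to 0.40), Apoe (-0.02 to 0.03) and Soat1 (-0.03 to 0.08) for palmitic acid without FABP4, of Nr1h2 (-0.05 to 0.04) for FABP4 without palmitic acid, of Nr1h3 (-0.01 to 0.05) and Nr1h2 (-0.04 to 0.05) for FABP4 with palmitic acid, and of Nr1h2 (-0.03 to 0.07) and Mylip (-1.18 to 0.02) for the interaction.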
